A study of Arabidopsis thaliana with 72 samples.

Results

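APL3, APL4 and SBE2.2 are genes of starch synthesis in Arabidopsis thaliana, and their transcript levels are described here in shoots and roots of 6 lines at low and at sufficient nitrate. The members were the probe sets that the probe-to-gene table pairs with 1 of these genes and no other, which gave 1 probe set for each, 3 of the 22746 probe sets of the array and 3 of 13356 genes with a probe set of their own. They are 252888_at for APL3 (AT4G39210), 263544_at for APL4 (AT2G21590) and 250906_at for SBE2.2 (AT5G03650).

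Starch is made in plastids from ADP-glucose. ADP-glucose pyrophosphorylase, an enzyme of small and large subunits, makes this sugar nucleotide in the first committed step of the pathway, starch synthases add it to growing glucan chains, and branching enzymes cut and rejoin the chains to form the branch points of amylopectin. APL3 and APL4 encode large subunits, which tune the enzyme's response to its effectors. In Arabidopsis they are best known from tissues that import sugar and from leaves fed with sugar, whereas APL1 supplies most of the large subunit of ordinary leaves. SBE2.2 encodes a branching enzyme of leaves whose function overlaps with that of SBE2.1. Leaves of nitrogen-limited plants are known to build up starch, and in tobacco nitrate is known to lower transcripts of an ADP-glucose pyrophosphorylase gene.

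The lines were the accessions El-0 (stock N1134) and Fei-0 (stock CS76412) and 4 recombinant inbred lines, which are inbred progeny of a cross between accessions: KB006 from Kondara and Br-0, NG064 and NG087 from Nok-3 and Ga-0, and SG063 from Sorbo and Gy-0. All plants were grown for 21 days in vertical dishes on agar with 1% sucrose. Low nitrate was 0.4 mM, given as calcium nitrate with potassium chloride added, and sufficient nitrate was 9 mM, given as potassium and calcium nitrate. There were 24 combinations of line, organ and supply, with 3 biological replicates of each, every replicate a pool of 30 plants from 3 plates, which made 72 arrays and 18 arrays per organ and supply. The series design describes the lines as contrasting in growth at low nitrogen and does not say which grew better. Sucrose was in every medium, so no group was without supplied sugar.

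Values are log2 GCRMA values per probe set as deposited; GCRMA subtracts a background modelled from probe sequence, and the lowest value of the table, 2.11, acts as a floor. A value within 0.1 of it is called at the floor. Array medians lay between 5.72 and 6.04. In shoots they were on average 0.17 higher at low than at sufficient nitrate, and in roots the mean difference was -0.03. By correlation with the other arrays, 68 of 72 arrays were most like the organ and supply of their own label, and the exceptions were the 4 arrays of Fei-0 replicate 3. Of these, the low-nitrate shoot array came closest to sufficient-nitrate shoots (r = 0.983, and 0.962 for its label), and the sufficient-nitrate shoot array to low-nitrate roots (0.988, and 0.789 for its label). The low-nitrate root array came closest to sufficient-nitrate roots (0.987, and 0.977 for its label), and the sufficient-nitrate root array to low-nitrate shoots (0.985, and 0.859 for its label). No array was given another label, and the results that rest on these 4 arrays are given with and without them. On the other 68 arrays the organ labels held: the mean log2 value of 6 markers of green tissue (LHCB4.2, PRK, RCA, PSBW, SBPASE and PSAN) was 12.19 to 13.82 in shoots and 3.39 to 8.99 in roots, and that of the 4 measured root markers (PYK10, EXPA7, NAI2 and PRX72) was 5.38 to 7.58 in shoots and 9.88 to 11.32 in roots.

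APL3 rose at low nitrate in shoots. Its mean over the 18 shoot arrays was 7.77 ± 1.48 (SD) at low nitrate and 5.59 ± 1.14 at sufficient nitrate. In El-0 its 3 shoot arrays read 10.06, 9.08 and 8.84 at low nitrate and 8.57, 6.74 and 6.95 at sufficient nitrate. In Fei-0 they read 9.68, 7.13 and 6.04 against 6.03, 5.65 and 4.71, the last value of each set being from replicate 3. These accessions were the least clearly parted, with the lowest low-nitrate array 0.27 above the highest sufficient-nitrate array in El-0 and 0.01 above it in Fei-0. KB006 gave 9.32, 8.41 and 9.72 at low against 6.43, 5.66 and 6.72 at sufficient nitrate. NG064 gave 7.76, 6.47 and 6.25 against 4.47, 4.58 and 4.51. In KB006 and NG064 the supplies were separated by gaps of 1.70 and 1.68, the widest of the 6 lines for this gene. NG087 gave 7.34, 6.48 and 8.74 against 4.47, 4.56 and 5.75. SG063 gave 5.53, 6.34 and 6.61 against 4.65, 5.20 and 4.99. SG063 had the lowest mean of any line at low nitrate, with arrays among those of Fei-0 and NG064. In 6 of 6 lines every low-nitrate shoot array of APL3 was above every sufficient-nitrate shoot array of the same line. With all arrays as labelled this was so for 0.145% of all probe sets, and in 5 or more lines for 7.41%. The share for 6 lines includes Fei-0 replicate 3, whose arrays did not match their labels, and was not computed without it. It is therefore no measure of how consistent APL3 was between lines.

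**Figure D1:**
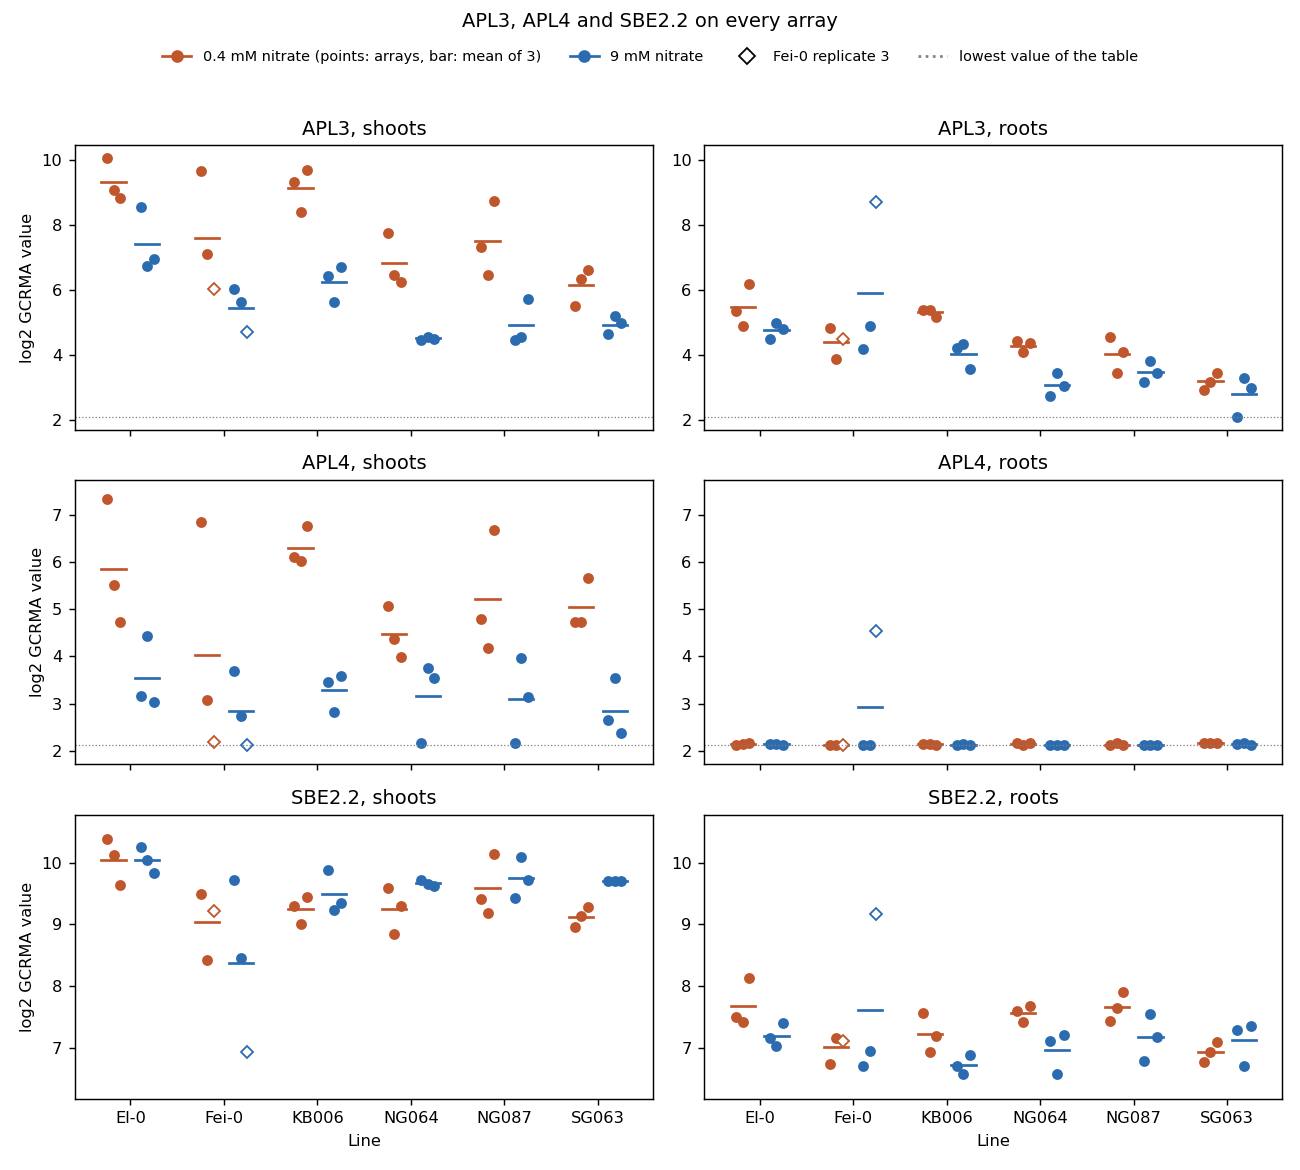
Log2 GCRMA values (vertical axes) of APL3, APL4 and SBE2.2 in shoots (left) and roots (right) of 6 lines, with a point for each array, a bar for each mean of 3, orange for 0.4 mM and blue for 9 mM nitrate; open diamonds are the arrays of Fei-0 replicate 3 and the dotted line is the lowest value of the table, 2.11. APL3 and APL4 stand higher at 0.4 mM in shoots, SBE2.2 lies between 6.93 and 10.38 there with overlapping supplies in 4 of 6 lines, and APL4 in roots is at the floor on 35 of 36 arrays.

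The mean rise of APL3 in shoots was 2.18 ± 0.29 on the log2 scale (SE), or 4.52-fold, with a 95% interval of 1.59 to 2.77 and an adjusted p of 1.23e-06 in limma with Benjamini-Hochberg adjustment over all probe sets. Without the 4 arrays of Fei-0 replicate 3 it was 2.25 ± 0.27 (adjusted p = 1.70e-07). In shoots 23.7% of all probe sets had a called rise at an adjusted p below 0.05 and 17.3% a called fall, so that the call alone was common, and the size was less so: a response as high as that of APL3 was met by 1.25% of probe sets. The p-values measure the spread between pools of plants of the same line. A bulk array cannot tell fewer cells of a type from less RNA per cell.

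Within single lines the APL3 rise in shoots was called in 3 of 6. It was 2.88 ± 0.70 in KB006 (adjusted p = 0.00971), 2.60 ± 0.70 in NG087 (0.0188) and 2.31 ± 0.70 in NG064 (0.0321), by limma, where 6.51%, 6.59% and 6.65% of all probe sets rose. Each of these calls depended on single arrays. The adjusted p reached 0.0535 in KB006 without low-nitrate replicate 3, up to 0.115 in NG087 without low-nitrate replicate 3 or sufficient-nitrate replicate 1 or 2, and up to 0.160 in NG064 without any of its arrays but low-nitrate replicate 3. The differences in El-0 (1.91 ± 0.70, adjusted p = 0.0723), Fei-0 (2.15 ± 0.70, 0.297) and SG063 (1.21 ± 0.70, 0.279) did not pass. The Benjamini-Hochberg adjustment was made within each line, and in Fei-0, with the arrays as labelled, 0.0308% of probe sets passed in each direction. With the 4 arrays of Fei-0 replicate 3 left out, APL3 rose in 5 of 6 lines, El-0 and Fei-0 included (adjusted p = 0.0280 and 0.0254), and the value of SG063 had an adjusted p of 0.176; the shares of all probe sets that rose were then 14.1% in El-0, 8.53% in Fei-0, 13.1% in KB006, 12.5% in NG064, 12.7% in NG087 and 14.9% in SG063. The responses of the lines were not shown to differ from each other (line by nitrate interaction, moderated F test, adjusted p = 0.928, and 0.973 without the 4 arrays), in a test that called 0.800% of all probe sets.

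**Figure D2:**
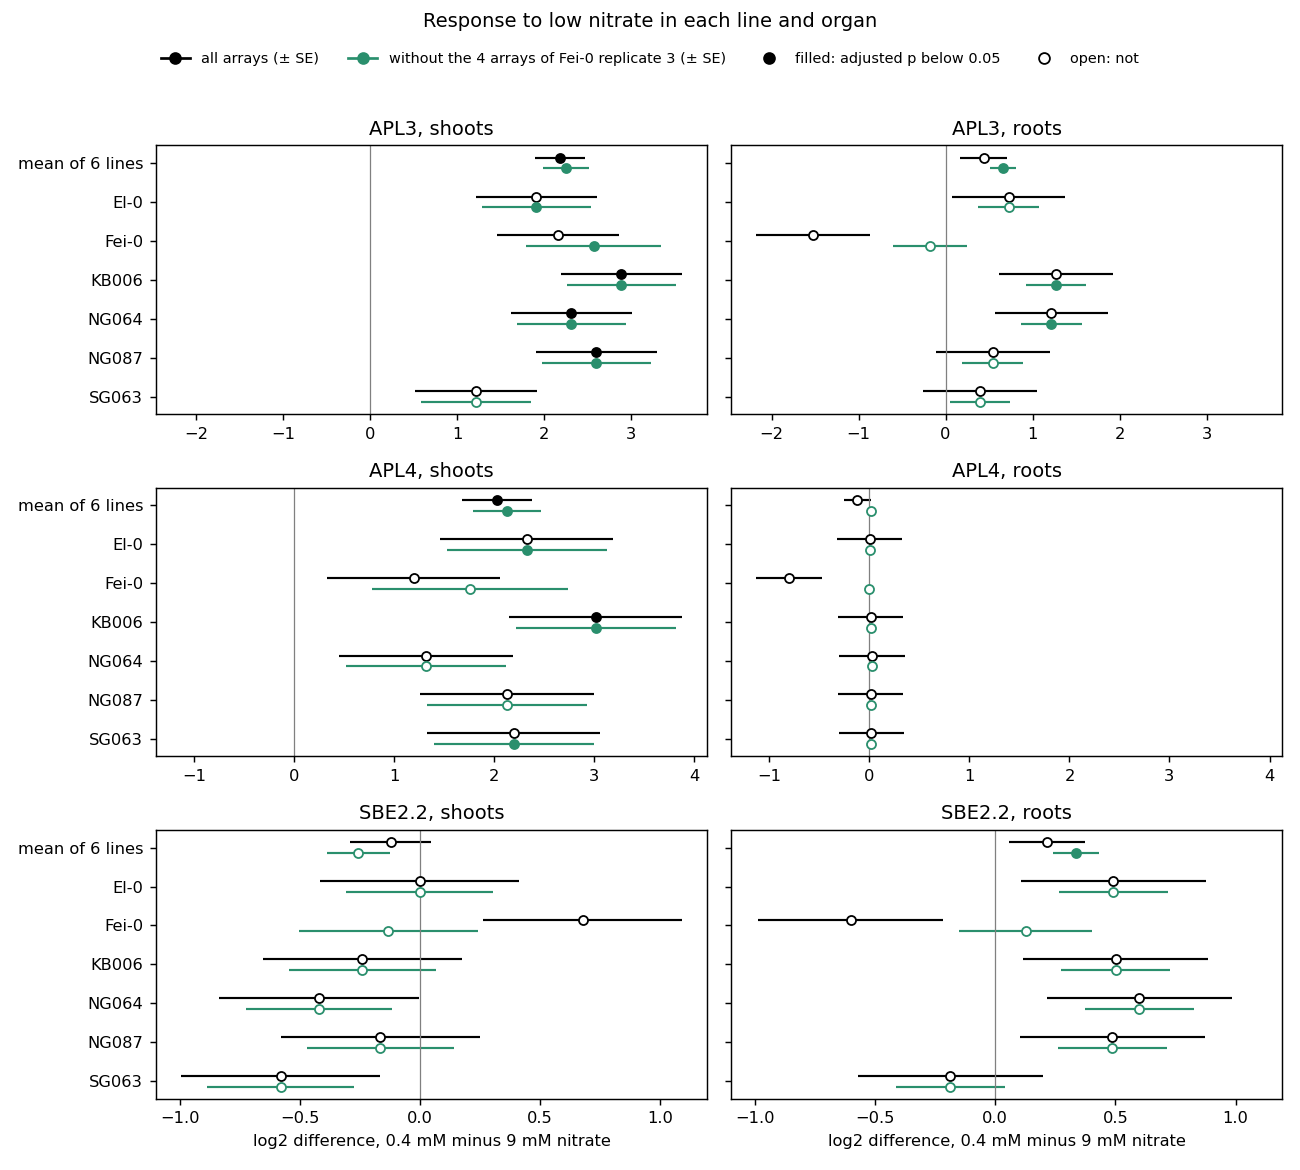
Log2 difference between 0.4 mM and 9 mM nitrate (horizontal axes, ± SE) of APL3, APL4 and SBE2.2 for the mean of 6 lines and for each line, in shoots (left) and roots (right), with all arrays in black and without the 4 arrays of Fei-0 replicate 3 in green; filled points have an adjusted p below 0.05. The shoot means of APL3 and APL4 are 2.18 and 2.03, the root means of APL3 and SBE2.2 are filled only without the 4 arrays, and the SBE2.2 axis is narrower than the others.

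In roots APL3 was low, and what its response was depended on the Fei-0 arrays. Over 18 root arrays a supply its mean was 4.46 ± 0.87 (SD) at low and 4.02 ± 1.42 at sufficient nitrate. El-0 roots read 5.38, 4.90 and 6.19 at low against 4.51, 4.98 and 4.80 at sufficient nitrate, and overlapped. KB006 roots read 5.39, 5.39 and 5.18 against 4.23, 4.36 and 3.57. NG064 roots read 4.44, 4.09 and 4.36 against 2.74, 3.46 and 3.05. KB006 and NG064, the lines with the widest gaps in shoots, were also the only lines whose root arrays did not overlap between the supplies, with gaps of 0.82 and 0.63; 22.8% of all probe sets had 2 or more such lines. NG087 roots read 4.56, 3.46 and 4.09 at low against 3.19, 3.83 and 3.46 at sufficient nitrate. SG063 roots read 2.94, 3.19 and 3.45 against 2.11, 3.31 and 2.98, with the lowest mean of any line at each supply and its first sufficient-nitrate array at the floor. Fei-0 roots read 4.84, 3.89 and 4.50 at low against 4.19, 4.89 and 8.71 at sufficient nitrate. The value of 8.71 is that of the array that was most like shoots at low nitrate, and no other root array of APL3 was above 6.19.

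With all 36 root arrays the mean difference of APL3 was 0.44 ± 0.27 (95% interval -0.11 to 0.99, adjusted p = 0.232 by limma) and did not pass. Without the 4 arrays APL3 rose in roots by 0.66 ± 0.15, or 1.58-fold (adjusted p = 0.000713), and without the Fei-0 sufficient-nitrate replicate 3 array alone by 0.67 (adjusted p = 0.000400). The shares of all probe sets that rose and fell in roots were 21.2% and 15.5% with all arrays, and 23.6% and 19.1% without the 4. No line had a called difference with all arrays; without the 4, APL3 rose in KB006 by 1.27 ± 0.35 (adjusted p = 0.00812) and in NG064 by 1.22 ± 0.35 (adjusted p = 0.0121), where 13.9% and 12.7% of all probe sets rose. Markers of green tissue also moved with nitrate in roots, the other way: on the root arrays other than Fei-0 replicate 3 their mean log2 value was 3.39 to 6.00 at low and 7.13 to 8.99 at sufficient nitrate (17 arrays each), for 6 of 6 markers, and PRK was at the floor on 3 of the 17 arrays at low nitrate. The root marker mean was 9.88 to 10.92 at low and 10.35 to 11.32 at sufficient nitrate. The part of these shifts in the root values of any gene given here was not tested.

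The level of APL3 also differed between lines, in both organs. In shoots at low nitrate the order of the means was El-0 (9.33 ± 0.65, SD, n = 3), KB006 (9.15 ± 0.67), Fei-0 (7.62 ± 1.87), NG087 (7.52 ± 1.15), NG064 (6.83 ± 0.82) and SG063 (6.16 ± 0.56). At sufficient nitrate it was El-0 (7.42 ± 1.00), KB006 (6.27 ± 0.55), Fei-0 (5.46 ± 0.68), SG063 (4.95 ± 0.27), NG087 (4.92 ± 0.71) and NG064 (4.52 ± 0.05). El-0 and KB006 were thus highest at each supply, and no neighbours in either order differed past the threshold. The moderated F test of line means over both supplies called APL3 in shoots (adjusted p = 0.000259), as it did 25.2% of all probe sets. Of the 30 pairs of lines at a given supply, 6 were called in shoots, against 4.77% of all pairs over all probe sets. At low nitrate El-0 exceeded SG063 by 3.17 ± 0.70, or 9.01-fold (adjusted p = 0.00869), and NG064 by 2.50 ± 0.70 (0.0474), and KB006 exceeded SG063 by 2.99 ± 0.70 (0.0122). At sufficient nitrate El-0 exceeded NG064 by 2.90 ± 0.70 (adjusted p = 0.0121), NG087 by 2.50 ± 0.70 (0.0409) and SG063 by 2.48 ± 0.70 (0.0479). Without replicate 1 or replicate 2 none of these 30 pairs was called, and without replicate 3, 1 was.

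In roots the order of APL3 at low nitrate was El-0 (5.49 ± 0.65), KB006 (5.32 ± 0.12), Fei-0 (4.41 ± 0.48), NG064 (4.30 ± 0.19), NG087 (4.04 ± 0.55) and SG063 (3.20 ± 0.26), and again no neighbours differed past the threshold. El-0 and KB006 were highest and SG063 lowest, as in shoots at that supply. At sufficient nitrate Fei-0 led with 5.93 ± 2.43, which became 4.54 without its replicate 3 and then stood below El-0 (4.76 ± 0.24); KB006 (4.05 ± 0.42), NG087 (3.49 ± 0.32), NG064 (3.08 ± 0.36) and SG063 (2.80 ± 0.62) followed. The line means differed by the F test (adjusted p = 0.00114, and 1.65e-06 without the 4 arrays), in a test that called 44.4% of all probe sets. The adjusted p was 0.0545 without replicate 1 and 0.0505 without replicate 2. Of the 30 root pairs 5 were called, 3 of them with Fei-0 at sufficient nitrate, and 12 were called without the 4 arrays, against 10.2% and 14.8% of all pairs over all probe sets. At low nitrate El-0 exceeded SG063 in roots by 2.29 ± 0.65 (adjusted p = 0.0360). The probes carry the sequence of a reference accession, so for any line difference a lower transcript level and a sequence difference under the probes cannot be told apart here.

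APL4 also rose at low nitrate in shoots, from levels close to the floor. Its mean was 5.16 ± 1.36 (SD, 18 arrays) at low and 3.13 ± 0.67 at sufficient nitrate. In El-0 its shoot arrays read 7.35, 5.52 and 4.72 at low against 3.17, 4.43 and 3.02 at sufficient nitrate. In Fei-0 they read 6.86, 3.07 and 2.17 against 3.69, 2.73 and 2.11. Fei-0 was the line in which the supplies overlapped; its replicate 3 was at the floor at both supplies, and its first and second replicates overlapped as well. KB006 gave 6.12, 6.02 and 6.76 against 3.46, 2.82 and 3.59, with the widest gap for this gene, 2.43. NG064 gave 5.08, 4.36 and 3.98 against 2.16, 3.76 and 3.54. The gap was 0.22 in NG064, and its first sufficient-nitrate array was at the floor. NG087 gave 4.79, 4.18 and 6.67 against 2.16, 3.96 and 3.14. SG063 gave 4.73, 4.73 and 5.67 against 2.64, 3.53 and 2.37. The low-nitrate arrays were all above the sufficient-nitrate arrays in 5 of 6 lines, as for 7.41% of all probe sets.

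The mean rise of APL4 in shoots was 2.03 ± 0.35 on the log2 scale, or 4.08-fold, with a 95% interval of 1.30 to 2.76 (adjusted p = 4.91e-05 by limma; 2.12 ± 0.34 and 1.14e-05 without the 4 arrays). Responses this high or higher were found for 1.47% of probe sets. Since 3 of the 18 shoot arrays at sufficient nitrate were at the floor, against 1 at low nitrate, this value can understate the rise. In single lines APL4 rose in KB006 alone, by 3.01 ± 0.87 (adjusted p = 0.0257), and the call was lost, with an adjusted p of up to 0.101, without replicate 1 or 3 at low or replicate 1 or 2 at sufficient nitrate. It was also lost with the replicate number as a block in the lines where the numbers paired the shoot arrays (adjusted p = 0.0567). The other lines gave 2.33 in El-0, 2.13 in NG087, 1.32 in NG064 and 1.19 in Fei-0, and a value between those of El-0 and NG087 in SG063, each ± 0.87, with adjusted p between 0.0772 and 0.690. The calls without the 4 arrays were 3, those of KB006, El-0 (adjusted p = 0.0348) and SG063 (0.0465). The share of all probe sets that rose was 6.51% in KB006 with all arrays. Without the 4 arrays it was 13.1% in KB006, 14.1% in El-0 and 14.9% in SG063. Neither the interaction of line and nitrate (adjusted p = 0.953) nor the line level (0.429) was called for APL4 in shoots. At low nitrate its line means ran from 6.30 ± 0.40 in KB006 through El-0, NG087, SG063 and NG064 to 4.04 ± 2.49 in Fei-0, and at sufficient nitrate from 3.54 ± 0.77 in El-0 to 2.84 ± 0.80 in Fei-0, with no called pair. Without replicate 3 the Fei-0 means were 4.97 and 3.21, and Fei-0 was not the lowest line at either supply.

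In roots APL4 was at the floor on 35 of 36 arrays, between 2.11 and 2.16. The exception, 4.53, was the Fei-0 sufficient-nitrate replicate 3 array, the same one that read 8.71 for APL3. The mean root difference was -0.12 ± 0.13 with all arrays and 0.012 ± 0.0064 without the 4 (adjusted p = 0.552 and 0.136 by limma), and since the root arrays other than that one gave only an upper bound on the level, no root response can be read for this gene.

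SBE2.2 had no called response to nitrate in shoots. Its mean over 18 shoot arrays was 9.38 ± 0.48 (SD) at low and 9.50 ± 0.75 at sufficient nitrate. El-0 shoots read 10.38, 10.13 and 9.63 at low against 10.26, 10.05 and 9.84 at sufficient nitrate, an overlap nearly from end to end. Fei-0 shoots read 9.49, 8.42 and 9.22 against 9.72, 8.46 and 6.93, the last being the array most like roots at low nitrate. KB006 shoots read 9.29, 9.00 and 9.44 against 9.87, 9.24 and 9.34. NG087 shoots read 9.41, 9.19 and 10.14 against 9.42, 10.10 and 9.72. In these 4 lines the supplies overlapped. NG064 shoots read 9.60, 8.84 and 9.30 against 9.72, 9.66 and 9.62, and SG063 shoots 8.96, 9.13 and 9.28 against 9.71, 9.70 and 9.71. In NG064 and SG063 every low-nitrate array was below every sufficient-nitrate array, as in 2 or more lines for 19.3% of all probe sets.

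The mean shoot difference of SBE2.2 was -0.12 ± 0.17, with a 95% interval of -0.47 to 0.23 (adjusted p = 0.611 by limma), and -0.26 ± 0.13 without the 4 arrays (adjusted p = 0.109). Leaving Fei-0 out as a line gave -0.28 (adjusted p = 0.0341), which is a call, and leaving out replicate 2 gave 0.024. Centred on array medians the difference was -0.30 (adjusted p = 0.120). No single line had a called difference, the lowest being -0.58 ± 0.41 in SG063 (adjusted p = 0.419), and the interaction was not called (adjusted p = 0.906). Fei-0 was called once its sufficient-nitrate replicate 1 was left out (1.35, 0.0396), a fit that kept the replicate 3 array most like roots. Without the 4 arrays Fei-0 shoots gave -0.13 ± 0.37 and were not called. Line level was called in shoots (adjusted p = 0.0243), as for 25.2% of all probe sets, but not without replicate 2 (0.561) or replicate 3 (0.128). El-0 had the highest mean at both supplies, 10.05 ± 0.38 and 10.05 ± 0.21, and Fei-0 the lowest, 9.04 ± 0.55 and 8.37 ± 1.40. The 4 called shoot pairs were El-0, NG064, NG087 and SG063 each against Fei-0 at sufficient nitrate, by 1.30 to 1.68, and none of them was called without the 4 arrays. Over all probe sets 4.77% of shoot pairs were called with all arrays.

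In roots SBE2.2 was read at 7.34 ± 0.38 at low and 7.13 ± 0.59 at sufficient nitrate (SD, 18 arrays each). El-0 roots read 7.50, 7.41 and 8.13 against 7.16, 7.02 and 7.39, and KB006 roots 7.56, 6.92 and 7.19 against 6.71, 6.57 and 6.88. NG064 roots read 7.60, 7.42 and 7.67 against 7.11, 6.58 and 7.20. In these 3 lines low nitrate stood above sufficient nitrate without overlap, by 0.02 to 0.22, as in 3 or more lines for 15.1% of all probe sets. NG087 roots read 7.42, 7.64 and 7.90 against 6.78, 7.55 and 7.17, and SG063 roots 6.76, 6.94 and 7.09 against 7.29, 6.70 and 7.36. Fei-0 roots read 6.74, 7.16 and 7.11 against 6.70, 6.95 and 9.17, and the value of 9.17 again came from the array most like shoots at low nitrate. These 3 lines overlapped between the supplies.

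The mean root difference of SBE2.2 was 0.22 ± 0.16 with all arrays (95% interval -0.11 to 0.54, adjusted p = 0.338 by limma). Leaving out the 4, SBE2.2 rose by 0.34 ± 0.10, or 1.26-fold (adjusted p = 0.00607), and without the Fei-0 sufficient-nitrate replicate 3 array alone by 0.35 (0.00363). With the 4 left out, 23.6% of all probe sets rose in roots, and 13.4% had a response as high as that of SBE2.2. Single lines had no called difference with or without the 4 arrays, but Fei-0 was called without its sufficient-nitrate replicate 1 (-1.06, adjusted p = 0.0493). That fit kept the replicate 3 array most like shoots, and without the 4 arrays Fei-0 roots gave 0.13 ± 0.28. The line means in roots were not called with all arrays (adjusted p = 0.579) and were called without the 4 (0.0211, as for 56.0% of all probe sets), when El-0 and NG087 exceeded SG063 at low nitrate by 0.75 ± 0.23 (adjusted p = 0.0346) and 0.72 ± 0.23 (0.0392). Over all probe sets 14.8% of root pairs were called without the 4.

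All 3 genes were read at higher levels in shoots than in roots at both supplies, in a fit of all 72 arrays. For APL3 the difference was 3.31 ± 0.28 at low nitrate (9.92-fold, adjusted p = 3.35e-15) and 1.57 ± 0.28 at sufficient nitrate (2.97-fold, 1.97e-06). For SBE2.2 it was 2.04 ± 0.16 (4.11-fold, adjusted p = 8.11e-16) and 2.38 ± 0.16 (5.19-fold, 3.92e-18). Without the 4 arrays of Fei-0 replicate 3, APL3 was 10.9-fold higher in shoots at low and 3.64-fold at sufficient nitrate. SBE2.2 was then 4.09-fold and 6.18-fold higher. For APL4, whose roots were at the floor, the low-nitrate fold is a lower bound: without the 4 arrays it was at least 9.04-fold (adjusted p = 2.86e-16). At sufficient nitrate 2 of the 17 shoot arrays of APL4 were at the floor as well, so the fitted 2.09-fold (adjusted p = 0.000121) is not a bound. With all arrays as labelled the APL4 differences were 3.02 ± 0.27 and 0.87 ± 0.27 (adjusted p = 0.00383), and the second was 0.60 (0.208) without replicate 2. At these supplies 25.0% and 27.6% of all probe sets were called higher in shoots.

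The response to low nitrate itself differed between the organs for APL3. Its shoot response exceeded its root response by 1.74 ± 0.39 (95% interval 0.95 to 2.53, adjusted p = 0.000406), where 18.4% of all probe sets had a called difference in this direction, and by 1.59 ± 0.31 when the 4 arrays were left out. Within single lines the APL3 difference was called in Fei-0, a contrast in which 4.2% of all probe sets were called this way, and, leaving out the 4 arrays, in Fei-0 and NG087 (3.54% and 9.11% of all probe sets). For APL4 this comparison cannot be made, since its root arrays were at the floor at both supplies. For SBE2.2 the difference went the other way, at -0.34 ± 0.23, and did not pass (adjusted p = 0.282). It passed without the 4 arrays (-0.59 ± 0.16, adjusted p = 0.00233; 19.0% of all probe sets in this direction) and with arrays centred on their medians (-0.54, 0.0383). By line, the differences of SBE2.2 without the 4 arrays lay between -1.02 in NG064 and -0.26 in Fei-0, below 0 in 6 of 6 lines and called in none.

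At each supply KB006 and El-0 had the highest shoot means of both APL3 and APL4. With replicate 3 included the order of the other lines differed: Fei-0 came next after them for APL3 and last for APL4. Without replicate 3 the APL4 mean of Fei-0 was 4.97 at low nitrate, above that of NG064 (4.47). At sufficient nitrate it was then 3.21, next after KB006 (3.29), as for APL3. Over the 12 shoot group means of line and supply the Pearson correlation of APL3 with APL4 was 0.86, and it was 0.77 over the 6 lines at low and 0.84 over the 6 lines at sufficient nitrate. Between SBE2.2 and these genes it was -0.04 (APL3) and -0.21 (APL4) over the 12 groups. These are descriptions: the means come from the same arrays, and the Fei-0 means include replicate 3.

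**Figure D3:**
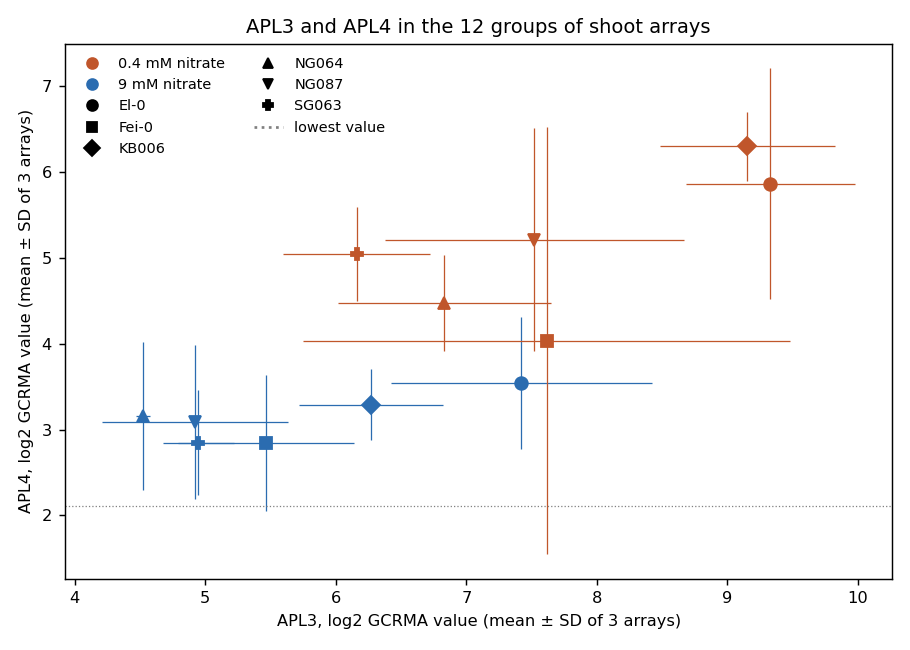
Mean log2 GCRMA value of APL4 (vertical axis) against APL3 (horizontal axis) in the 12 shoot groups, with SD over 3 arrays as bars, colour for nitrate supply, symbol for line and a dotted line at the lowest value of the table. The 0.4 mM groups lie to the upper right of the 9 mM group of the same line, KB006 and El-0 reach furthest, and the long bars of Fei-0 at 0.4 mM (SD 1.87 and 2.49) include replicate 3.

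Of 24 genes listed for starch synthesis 7 had a probe set of their own, of 26 for starch degradation 4, and of 8 for sucrose cleavage none; the others were not analysed here, APL1, the small subunits and SBE2.1 among them. In shoots 2 of the 7 synthesis genes rose, APL3 and APL4, and 1 fell, SS5, where 23.7% of all probe sets rose and 17.3% fell. SS5 is a non-canonical starch synthase family protein that takes part in granule initiation. It went from 9.43 ± 0.41 to 9.12 ± 0.23, a fall of 0.32 ± 0.08 that was seen in 5 of 6 lines (adjusted p = 0.00157 by limma). The median response of the 7 was -0.05, beside a median of 0.00 over all probe sets. Leaving out the 4 arrays, when 28.0% of all probe sets rose and 21.9% fell, made the falls 3, with PTST1, which brings granule-bound starch synthase to the granule (-0.41 ± 0.14, adjusted p = 0.0188), and PTST3, which acts in granule initiation (-0.15 ± 0.05, 0.0213). The remaining gene, PTST2, also of granule initiation, gave -0.03 ± 0.11 with all arrays and did not pass. None of the synthesis genes fell without replicate 1 or without replicate 2. The falls were 2 after centring on array medians, which put PTST1 at -0.45 (adjusted p = 0.0200 by limma). After this centring falls were the commoner call over all probe sets in shoots: 23.6% of calls were rises, against 57.7% before it.

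Among the 4 degradation genes 2 rose in shoots and none fell, where 23.7% of all probe sets rose and 17.3% fell. LESV, a starch-binding protein related to EARLY STARVATION 1, rose by 0.68 ± 0.16 (adjusted p = 0.000981), from 6.19 ± 0.61 to 6.87 ± 0.53 and in 6 of 6 lines; without replicate 2 it was 0.60 ± 0.23 and did not pass (0.0701). AMY1, a secreted alpha-amylase that is not needed for starch turnover in leaf plastids, rose by 0.98 ± 0.35 (adjusted p = 0.0268), and its call was lost without the 4 arrays (0.84 ± 0.35, 0.0536), without replicate 1 (0.61, 0.257) and without replicate 2 (1.13, 0.107). PWD, a phosphoglucan water dikinase that phosphorylates starch, and DPE1, a plastid enzyme that rearranges short glucans, gave 0.30 ± 0.19 and 0.17 ± 0.21 and did not pass.

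In roots 0 of the 7 synthesis genes rose with all arrays and SS5 fell, by 0.34 ± 0.08 (adjusted p = 0.00120), in 6 of 6 lines, where 21.2% of all probe sets rose and 15.5% fell; without replicate 1 SS5 gave -0.32 ± 0.12 and did not pass (0.0893). With the 4 left out, when 23.6% of all probe sets rose and 19.1% fell, 3 rose, APL3, SBE2.2 and PTST1 (0.21 ± 0.06, adjusted p = 0.00463), and SS5 still fell (-0.35 ± 0.04, 8.46e-08). In roots 2 of the 4 degradation genes fell: PWD by 0.54 ± 0.16 (adjusted p = 0.0103) and DPE1 by 0.46 ± 0.11 (0.00136), each in 6 of 6 lines, and both also without the 4 arrays; PWD did not pass without replicate 1 (adjusted p = 0.0739) or replicate 2 (0.0917). LESV and AMY1 gave 0.12 ± 0.15 and -0.12 ± 0.09 in roots and did not pass. AMY1 was close to the floor in roots, at 2.64 ± 0.10 at low and 2.77 ± 0.40 at sufficient nitrate. Its difference was -0.04 without the 4 arrays, and these levels limit what it can show. The lists are short and were chosen with earlier results of these data known, so their counts describe these genes only.

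**Figure D4:**
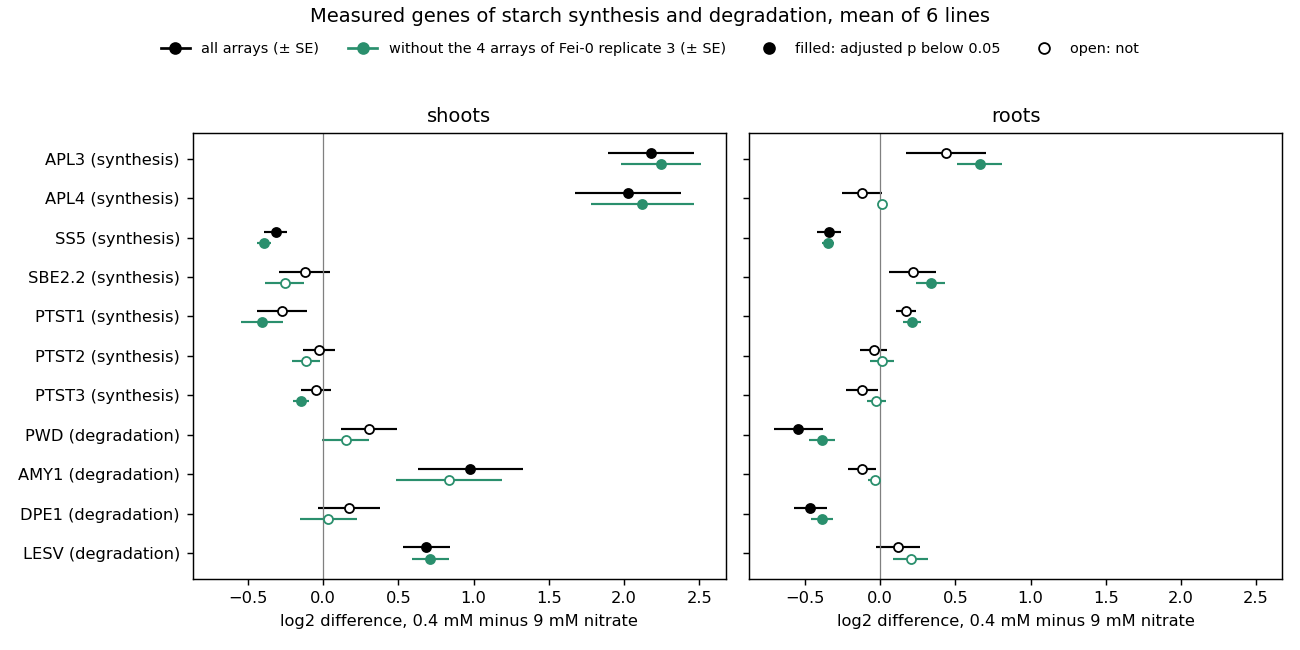
Log2 difference between 0.4 mM and 9 mM nitrate (horizontal axes, mean of 6 lines ± SE) of the 7 measured synthesis and 4 measured degradation genes in shoots (left) and roots (right), with all arrays in black and without the 4 arrays of Fei-0 replicate 3 in green; filled points have an adjusted p below 0.05. APL3 and APL4 lie near 2 in shoots, AMY1 and LESV between 0.68 and 0.98, and SS5 below 0 in both organs.

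The genes most like each member were sought among 8073 probe sets paired with 1 gene whose group means spanned at least 1 log2 unit, by the Pearson correlation over the 24 group means with each organ's mean removed and the 4 arrays left out. For APL3 they were AT3G28700 (r = 0.91), AT1G43770 (0.90), AT3G07480 (0.87), AT1G06550 (0.87) and AT2G20400 (0.86). Their mean responses to low nitrate, without the 4 arrays, were 0.46 to 0.95 in shoots and 0.10 to 0.50 in roots, all smaller than that of APL3 in the same organ. AT2G20400 was close to the floor in both organs, with mean values of 2.88 in shoots and 2.91 in roots. For APL4 they were AT2G47880 (0.95), AT5G59330 (0.94), AT1G77280 (0.94), AT4G26950 (0.94) and AT4G32470 (0.93). Their shoot responses were 0.80 to 3.37 and their root responses -0.03 to 0.20, and 3 of them, AT2G47880, AT5G59330 and AT4G26950, had mean root values of 2.12 to 2.48, near the floor as APL4 was. For SBE2.2 the likeness was weaker: AT1G68980 (0.83), AT5G12900 (0.76), PM-ANT (0.76), AT1G14770 (0.74) and AT5G03370 (0.74), with shoot responses of -0.42 to -0.18 and root responses of -0.03 to 0.44. Of these genes AT1G14770 was low in both organs, with mean values of 3.42 in shoots and 2.81 in roots. With Spearman's rho 2, 2 and 4 of the 5 genes of APL3, APL4 and SBE2.2 were again among the nearest 5, and with all 72 arrays 2, 2 and none.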

How the data were processed

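RNA from 72 pools of plants was hybridised to Affymetrix arrays. The deposited values are log2 values per probe set; per the submitters' processing notes affy, GCRMA and limma were used, with no version, and the arrays normalised together and the genome build are not given in the sources used here. All 22746 probe sets were used unfiltered and without further normalization. The probe table pairs 13513 with 1 gene, 503 with several and 8730 with none, and 13436 of the first matched the RefSeq gene table (assembly TAIR10.1), used for names only. For each organ, limma (3.58.1, run in R 4.3.3) fitted the means of 12 groups to its 36 arrays, and contrasts between organs came from a fit of all 72. The contrasts were low minus sufficient nitrate (mean of 6 lines and per line), moderated F tests of the line by nitrate interaction and of line means, and 15 pairs of lines at each supply. P-values were adjusted by Benjamini-Hochberg over all probe sets of a contrast and called below 0.05; "rose" and "fell" mean called. Errors of differences are limma's SE. The scripts were tested on simulated data.

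Members, lists and markers were chosen with earlier results of these data known. Named genes are the members, the measured list genes, the organ markers and, per member, the 5 probe sets of highest Pearson correlation. Alternatives were centring on array medians, quantile normalization, a minimum mean of 5, an intensity trend, a replicate block (also, added after seeing the data, within the lines where the numbers paired the shoot arrays), all 72 arrays in 1 fit, and leaving out replicates, Fei-0, its 4 replicate 3 arrays or, added after seeing the data, each array in turn. A planned search for promoter motifs was not run, and no sequences are shown, since no sequence was used here. The labels give 6 seeds per dish, which leaves the 30 plants from 3 plates unexplained, and titles with an added "-0" for the inbred lines; the genotype form is used. The number of arrays limits the precision.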

Additional observations from a re-analysis of the deposited data

Results flagged for a closer look

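The shoot response to low nitrate of APL3 exceeded its root response by 1.74 ± 0.39 on the log2 scale, by limma's test of the difference itself over 72 arrays (adjusted p = 0.000406); in 6 of 6 lines the difference was above 0. Within lines the difference was called in Fei-0 alone, at 3.67 ± 0.96 (adjusted p = 0.0165), where replicate 3 does not match its labels; without the 4 arrays it was 2.74 ± 0.89 in Fei-0 (adjusted p = 0.0498) and was also called in NG087 (2.06 ± 0.72, 0.0442). Whether this difference between the organs varies between lines was not tested.

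For APL4 the same contrast gave 2.15 ± 0.38 (adjusted p = 1.18e-05) over all lines and 3.00 ± 0.93 (0.0399) in KB006. Its roots were at the floor on 35 of 36 arrays, so these values restate the shoot response and do not show that the organs respond differently.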

How the results depend on the processing

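The shoot rises of APL3 and APL4 in the mean of 6 lines kept their direction and their call under every alternative that tested them; with a minimum mean of 5 APL4 was not tested. With Fei-0 left out, the mean root responses were 0.83 (APL3), 0.015 (APL4, turned, roots at the floor) and 0.38 (SBE2.2). The SBE2.2 shoot response was then -0.28, its shoot minus root response -0.66 and its root line level had an adjusted p of 0.0445 by the moderated F test. In shoots 3 synthesis genes fell, SS5, SBE2.2 and PTST3, and PTST1 did not pass. In roots 3 rose, APL3, SBE2.2 and PTST1. Of all calls without Fei-0, 55.8% in shoots and 54.9% in roots were rises. Without the 4 arrays of Fei-0 replicate 3 or with replicates or arrays left out in turn, the results that moved spanned these ranges. APL3 was called in 0 to 5 lines and 0 to 7 pairs in shoots, and in 0 to 2 lines and 2 to 12 pairs in roots, with a mean root response of 0.11 to 0.67 and a root line level of adjusted p 1.65e-06 to 0.0545. APL4 was called in 0 to 3 lines and 0 to 1 pairs in shoots, its root response ran from -0.19 to 0.013, and its shoot minus root difference at sufficient nitrate from 0.60 to 1.08. For SBE2.2 the mean response ran from -0.34 to 0.024 in shoots and 0.14 to 0.35 in roots, the adjusted p of line level from 0.0221 to 0.561 in shoots and 0.0211 to 0.975 in roots, the called pairs from 0 to 5 and 0 to 2, and the shoot minus root response from -0.67 to -0.12. Single-line values that turned sign were not called with all arrays or when turned: APL4 in Fei-0 shoots ran from -0.22 (without low-nitrate replicate 1) to 2.12, and SBE2.2 from -0.17 to 0.21 in El-0 shoots, -0.13 to 1.35 in Fei-0 shoots, -0.46 to 0.21 in NG087 shoots, -1.06 to 0.18 in Fei-0 roots and -0.26 to 2.05 for the Fei-0 organ difference; with quantile normalization El-0 shoots gave 0.044. Of the synthesis genes 0 to 3 fell and 2 rose in shoots, and 0 to 1 fell and 0 to 3 rose in roots; of the degradation genes 0 to 2 rose in shoots and 1 to 2 fell in roots. Over all probe sets 3539 to 6379 rose and 2418 to 4979 fell in shoots, and 3144 to 5376 rose and 2315 to 4350 fell in roots. The causes were not tested.

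Centring on array medians put 2 lines at a called APL4 rise and the SBE2.2 shoot minus root response at -0.54, and called 12282 falls in shoots and 10245 rises in roots; the share of rises among calls went from 57.7% to 23.6% in shoots and from 57.8% to 75.1% in roots. With this centring and with quantile normalization alike, 2 synthesis genes fell in shoots and 1 rose in roots, and quantile normalization left 1 degradation gene rising in shoots. A minimum mean of 5 left 1 synthesis and 1 degradation gene rising in shoots, APL4 and AMY1 being then untested.

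Replicate numbers did not pair the samples over all lines: of 18 same-numbered pairs of low and sufficient arrays, 11 in shoots and 3 in roots correlated above 0.1 in their deviations from the group means. In shoots of KB006, NG087 and SG063 all 3 pairs did, and a replicate block within these lines, added after seeing the data, ended the APL4 call in KB006 (adjusted p = 0.0567) and changed no other call of the 3 genes in these lines or in the shoot mean. With a replicate block over all lines 1 synthesis gene rose in roots against 0 without it, and no call of APL3, APL4 or SBE2.2 changed; the APL3 line level in roots had an adjusted p of 0.00131. Signals near the floor limit APL4, most of all in roots, and AMY1 in roots.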

Other observations

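Within the 12 shoot groups of 3 arrays, the array that was highest for APL3 was also the highest for APL4 in 10 groups. For SBE2.2 it was the same array as for APL3 in 8 groups and the same as for APL4 in 8. How often other pairs of probe sets share their highest array is not given here, so these counts do not show a likeness particular to these genes. The SD between the 3 shoot pools of a group was largest in Fei-0 at low nitrate for APL3 and APL4 (1.87 and 2.49), and with its 2 other replicates alone it was still 1.80 and 2.68.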
